A study of Mus musculus with 4 samples.

Results

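The genes described here are 9 genes that mark resting, naive T cells: Foxo1, Klf2, Klf3, Il7r, Ccr7, S1pr1, Lef1, Tcf7 and Satb1. The genes were listed with earlier results of these data known, which bears on every count of members below. All their probes were taken by symbol from the array's probe-to-gene table, and 8 of the 9 had a probe among the 16590 named genes, with 11 probes in all. Tcf7 carried no named probe and was not analysed here. The 4 groups had 1 Illumina bead array each, so there is no replicate and no test, and the differences given compare single arrays. All 4 groups came from male B6.Cg-Foxp3tm2Tch/J mice, in which green fluorescent protein (GFP) reports Foxp3, the transcription factor of regulatory T cells (Treg). Vitamin C iTreg were naive CD4 cells stimulated with antibodies to CD3 and CD28 (1 µg/ml of each), IL-2 (15 ng/ml) and TGF-beta (10 ng/ml) together with vitamin C (10 µg/ml), and then sorted as GFP+CD25+ cells. Conventional iTreg were made and sorted in the same way without vitamin C. The sample labels give these cultures as 5 to 6 days, and the series text gives 5 days. Natural Treg were CD4+CD8-GFP+ cells sorted without culture from spleen and lymph node. Naive CD4 cells were sorted from the same organs as CD4+CD8-GFP-CD44low cells, the gate from which the iTreg cultures were started. The labels do not state how many mice were used or whether they were pooled.

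Foxo1 is a forkhead transcription factor that stays in the nucleus of resting T cells and is phosphorylated and moved out when antigen receptor or cytokine signals activate PI3K and Akt. It is known to switch on Il7r, which encodes the IL-7 receptor alpha chain that keeps naive T cells alive, and Klf2, a zinc finger factor that drives S1pr1 and so lets T cells leave lymph nodes. Klf3 is a related zinc finger repressor, Ccr7 is the chemokine receptor that guides naive cells into lymph nodes, Lef1 and Tcf7 are HMG-box factors of T cell identity, and Satb1 organises chromatin in thymocytes and T cells.

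The proximal promoters of Il7r, Klf2 and Klf3 are shown because these were the 3 members with the lowest value on the vitamin C iTreg array relative to the conventional one, and each has a single start site in RefSeq's table (build GRCm38.p6). Each sequence gives the 250 bases before the annotated start, read 5′ to 3′ on the gene's strand, with capitals at the matches to any of 5 motifs searched on both strands. The motifs were the forkhead motif TGTTTAC, the KLF motif CACCC, the TCF/LEF motif CTTTGA, the ETS motif ACTTCC and the MEF2 motif.
Il7r, chr15:9529877-9530126, minus strand: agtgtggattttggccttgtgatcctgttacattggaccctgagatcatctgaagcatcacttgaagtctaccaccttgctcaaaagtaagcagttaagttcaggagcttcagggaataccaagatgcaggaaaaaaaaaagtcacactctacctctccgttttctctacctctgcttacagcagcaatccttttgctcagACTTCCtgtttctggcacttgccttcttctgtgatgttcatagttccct
Klf2, chr8:72318812-72319061, plus strand: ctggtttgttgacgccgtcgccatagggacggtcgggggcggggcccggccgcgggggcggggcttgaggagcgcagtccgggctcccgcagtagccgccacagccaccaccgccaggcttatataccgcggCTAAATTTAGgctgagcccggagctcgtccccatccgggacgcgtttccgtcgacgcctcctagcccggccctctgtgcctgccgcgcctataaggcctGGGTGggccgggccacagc
Klf3, chr5:64803271-64803520, plus strand: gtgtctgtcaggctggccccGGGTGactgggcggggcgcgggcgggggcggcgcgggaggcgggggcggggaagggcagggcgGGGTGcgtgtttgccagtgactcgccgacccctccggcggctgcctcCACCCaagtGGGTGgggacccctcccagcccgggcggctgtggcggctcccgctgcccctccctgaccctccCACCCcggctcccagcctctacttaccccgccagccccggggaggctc
In Il7r the capitals mark 1 ETS match, 49 to 44 bases before the start. ETS matches occurred in 19.7% of all 32851 promoters of this length. In Klf2 they mark 1 MEF2 match, found in 0.508% of promoters, and 1 KLF match on the other strand (GGGTG). In Klf3 they mark 5 KLF matches, and 52% of promoters held at least 1. The forkhead motif, present in 3.17% of promoters, was in none of the windows listed for the 7 members that the table holds. These are matches of letters in a window and do not show binding.

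The median deposited intensity lay between 132 and 157 on the 4 arrays, and 7027 to 7603 genes were detected on each, meaning a detection p under 0.01 against the array's negative controls. Values below are background-corrected, quantile-normalized log2 intensities. Probes bind with different strengths, so levels are compared between arrays for 1 gene and never between genes. All 7 CD4 T cell markers with a probe were detected on every array, but not at an even level. In conventional iTreg minus naive CD4, 6 of the 7 lay below 0 (median -0.80 log2) and Cd2 lay above it (0.95). Cd247 (-2.94) and Cd5 (-1.06) were the 2 at least 2-fold lower, beside 14.7% of all genes compared. Of 7 Treg markers, 6 were detected on both iTreg arrays, and all 7 in natural Treg, while naive CD4 had 4 and lacked Foxp3, Il2ra and Ikzf2. Cd8a was not detected on any array, while Cd8b1 was detected on all 4. Of 5 B cell markers with a probe only Cd79b was detected, on the natural Treg (9.97) and naive (7.60) arrays. The summed B cell signal above the offset was 91.8 in vitamin C iTreg, 98.2 in conventional iTreg, 1145 in natural Treg and 293 in naive CD4. The CD8 T or NK cell sum was 4528 in vitamin C iTreg, 9521 in conventional iTreg, 4186 in natural Treg and 5991 in naive CD4. It adds genes that went different ways, so it does not measure a share of cells. Nkg7 was at 12.93 in conventional iTreg and not detected in naive CD4. Cd8b1 was at 10.34 in conventional iTreg and 11.97 in naive CD4. Of 5 myeloid markers only Cst3 was detected, and of 2 erythroid markers only Hba-a1, on the natural Treg and naive arrays. The part of other cells in the values below was not tested.

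Of the 8 members with a probe, 7 were detected on all 4 arrays and S1pr1 on none. The plot of the members' values by array shows a shared order: 6 of the 7 detected members were lowest in vitamin C iTreg and next lowest in conventional iTreg (for Foxo1 this order of the cultures turned with median centring), and 5 of them were highest in naive CD4 with natural Treg in between. Ccr7 had an order of its own. In Klf3 natural Treg lay only 0.02 above naive CD4 on the log2 scale. With 1 array a group no spread is known, so small gaps between neighbours in these orders cannot be read as differences. In these bulk samples fewer cells that express a gene and less RNA per cell cannot be told apart.

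**Figure D1:**
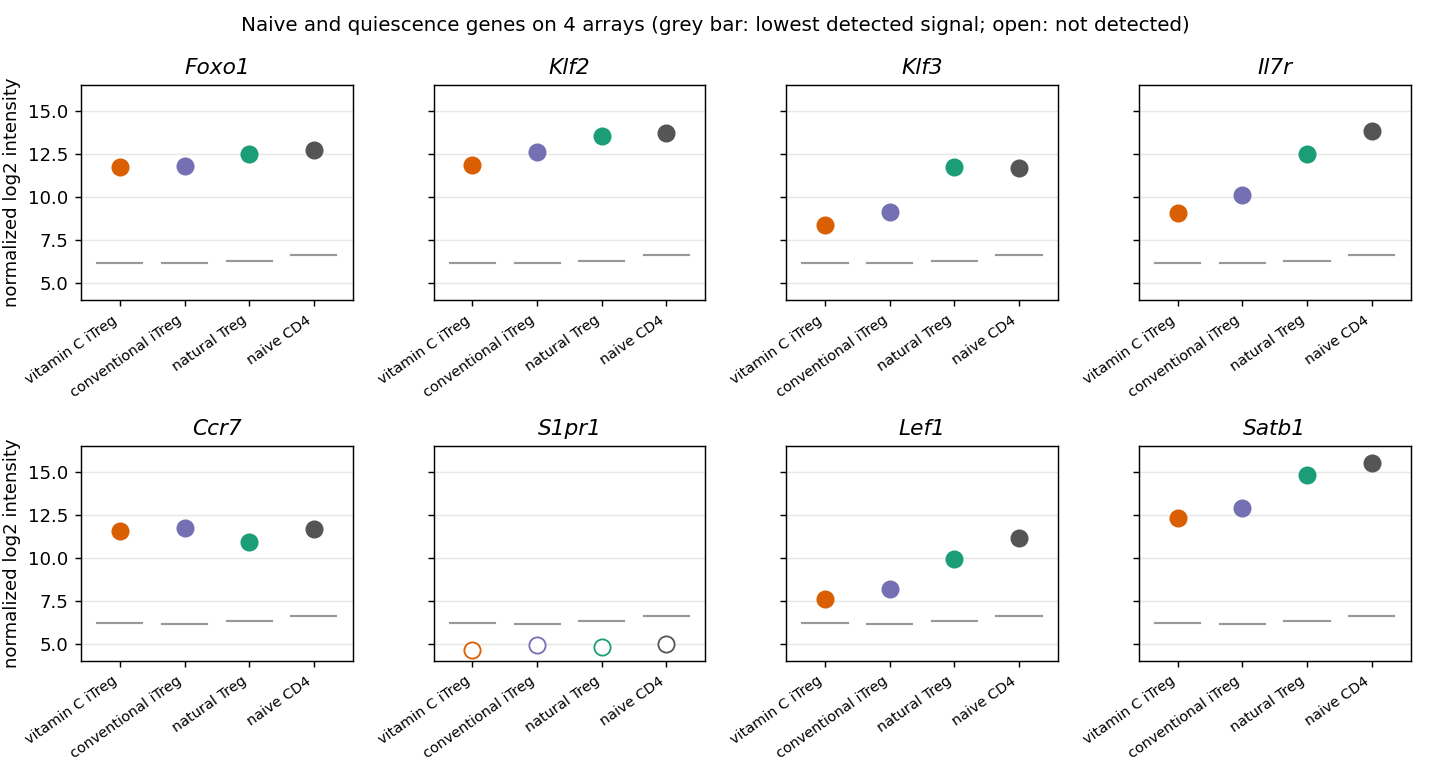
Normalized log2 intensity (y axis) of the main probe of each of 8 naive and quiescence genes on the vitamin C iTreg, conventional iTreg, natural Treg and naive CD4 arrays (x axis). Each point is 1 array, the grey bar is that array's lowest detected signal, and open points are not detected. Il7r spans 4.79 log2 units, Ccr7 0.80, and S1pr1 lies under the lowest detected signal on all 4 arrays.

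Foxo1, at the head of this pathway, had the narrowest range after Ccr7. It had a log2 intensity of 11.75 in vitamin C iTreg, 11.79 in conventional iTreg, 12.47 in natural Treg and 12.72 in naive CD4. Both cultures were thus a little under 2-fold below naive CD4 (-0.97 and -0.93 log2), and natural Treg lay only 0.25 below it. Foxo1 activity is set largely by phosphorylation and location, which an RNA array does not measure.

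Klf2 had a log2 intensity of 11.84 in vitamin C iTreg, 12.62 in conventional iTreg, 13.52 in natural Treg and 13.73 in naive CD4. The deposited linear intensities behind these values were 4251 in vitamin C iTreg, 6629 in conventional iTreg, 10429 in natural Treg and 12796 in naive CD4. Klf2 thus stepped down between the ex vivo pair and the cultured pair and again between the cultures. Its relative Klf3 had a log2 intensity of 8.38 in vitamin C iTreg, 9.13 in conventional iTreg, 11.71 in natural Treg and 11.69 in naive CD4. The ex vivo Treg and naive arrays were nearly level for Klf3, and both cultures were more than 2 log2 units under them.

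Il7r had the widest range of the members. Its main probe had deposited intensities of 719 in vitamin C iTreg, 1314 in conventional iTreg, 5288.5 in natural Treg and 13730.5 in naive CD4. On the log2 scale these were 9.05 in vitamin C iTreg, 10.12 in conventional iTreg, 12.49 in natural Treg and 13.84 in naive CD4. The gaps between neighbouring arrays were 1.07, 2.38 and 1.35. That between the cultures fell inside 2-fold in 3 of 8 alternatives (-0.95 without background correction and in the authors' values, -0.75 with probes averaged). Not all 8 could move it. The main probe was detected on every array, so alternatives that changed only the detection rule left its difference as it was. The authors' values repeat the setting without background correction.

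The homing receptor Ccr7, another gene under Foxo1, did not follow Il7r. It had a log2 intensity of 11.56 in vitamin C iTreg, 11.73 in conventional iTreg, 10.93 in natural Treg and 11.64 in naive CD4. The cultured cells and naive CD4 lay within 0.18 of each other, and natural Treg was the low array. S1pr1, the egress receptor driven by Klf2, had deposited intensities of 102 in vitamin C iTreg, 114 in conventional iTreg, 102 in natural Treg and 112 in naive CD4. Its detection p-values were 0.924 in vitamin C iTreg, 0.325 in conventional iTreg, 0.561 in natural Treg and 0.313 in naive CD4, so its only probe was not above background on any array. Since that includes the naive cells, which are known to carry the receptor, the probe allows no comparison.

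Lef1 had a log2 intensity of 7.61 in vitamin C iTreg, 8.18 in conventional iTreg, 9.92 in natural Treg and 11.15 in naive CD4. Satb1 had deposited intensities of 5923 in vitamin C iTreg, 7943 in conventional iTreg, 25895 in natural Treg and 45350 in naive CD4. Its log2 values were 12.33 in vitamin C iTreg, 12.89 in conventional iTreg, 14.81 in natural Treg and 15.47 in naive CD4. Both genes had the same order of arrays as Il7r, with the widest gap between natural Treg and conventional iTreg (1.73 for Lef1 and 1.92 for Satb1).

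Il7r and Lef1 are the members with more than 1 probe. In 9 of 9 pairs where both probes were detected on both arrays the differences had the same sign, and they came within 0.27 log2 of each other. For conventional iTreg minus naive CD4 the Il7r probes ILMN_2680827 and ILMN_2659739 gave -3.72 and -3.71, and the Lef1 probes ILMN_2648475 and ILMN_1239469 gave -2.97 and -2.91. The dim Il7r probe ILMN_2975500 was detected on the naive array alone, at a log2 intensity of 7.01. Probes of a gene share the RNA and the array, so their agreement bears on the probes and not on the cells.

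**Figure D2:**
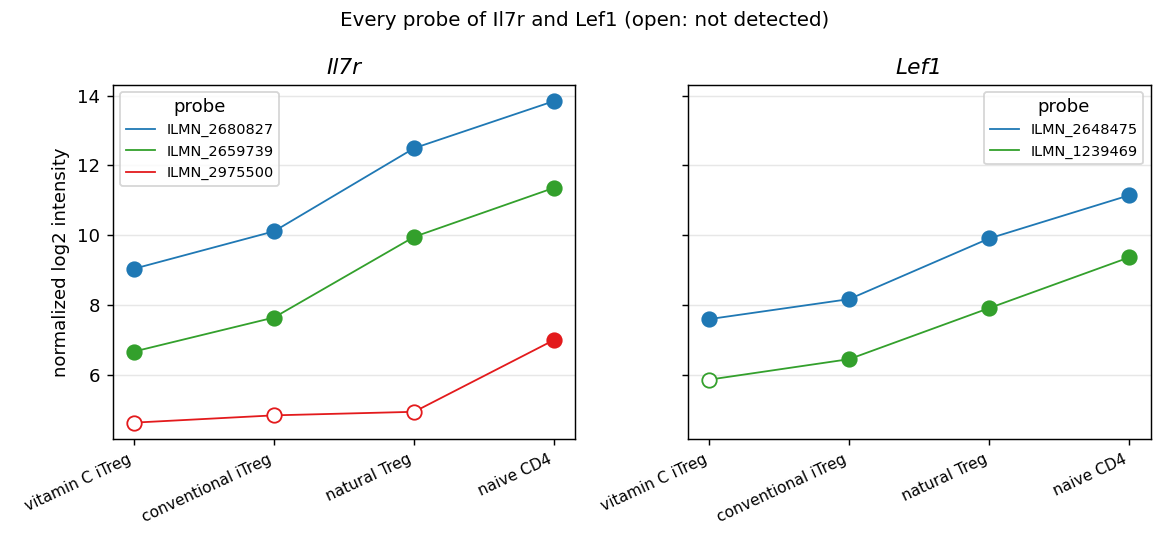
Normalized log2 intensity (y axis) of the 3 Il7r probes and the 2 Lef1 probes on the 4 arrays (x axis). Each line is a probe, and open points were not detected. The brighter Il7r probes run in parallel through all 4 arrays, and the dim probe is detected in naive CD4 alone, at 7.01.

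Conventional iTreg was compared with naive CD4, its starting population, to describe how the naive program stood after induction. Of the 7 compared members, 5 were at least 2-fold lower in conventional iTreg and 0 at least 2-fold higher, while 14.7% of the 7963 genes compared were at least 2-fold lower and 13.2% at least 2-fold higher. The median of the members was -2.56 log2, against -0.08 over all genes compared. Il7r was 13.2-fold lower, Lef1 7.83-fold, Satb1 5.98-fold, Klf3 5.89-fold and Klf2 2.17-fold. Averaging the Il7r probes put its log2 difference at -3.20, in place of -3.72. Il7r had 38 genes below it in the ranking of differences and Klf2 had 1002. Foxo1 (-0.93) did not reach 2-fold, and Ccr7 differed by 0.09. The iTreg had been stimulated, cultured and sorted for GFP and CD25, so Treg induction, activation and culture cannot be told apart here. Markers of other cells differed too. Nkg7, a cytotoxic granule gene, was at 12.93 in conventional iTreg and not detected in naive CD4, at least 6.28 log2 higher. Klrd1, an NK receptor gene, was at 8.68 in conventional iTreg and 10.88 in naive CD4 (-2.20), and Cd8b1 was at 10.34 in conventional iTreg and 11.97 in naive CD4 (-1.63). Cst3 was 1.204 higher. Cd79b and Hba-a1 were not detected in conventional iTreg and were at 7.60 and 9.10 in naive CD4. The part of such cells was not tested.

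Vitamin C iTreg against the same naive array gave 5 members at least 2-fold lower and 0 higher, with a background of 16% of 7945 genes lower and 13.8% higher. Its values were Il7r -4.79, Lef1 -3.54, Klf3 -3.31, Satb1 -3.14, Klf2 -1.89, Foxo1 -0.97 and Ccr7 -0.09 (median -3.14, and -0.09 over all genes compared). Il7r was 27.8-fold lower, and 17 genes lay below it, but with its probes averaged the log2 difference was -3.95. Nkg7 was at least 4.58 log2 higher than in naive CD4, Klrd1 -3.19, Cd8b1 -1.07 and Cst3 1.47. The naive array is common to both iTreg comparisons, so their likeness is partly built in.

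**Figure D3:**
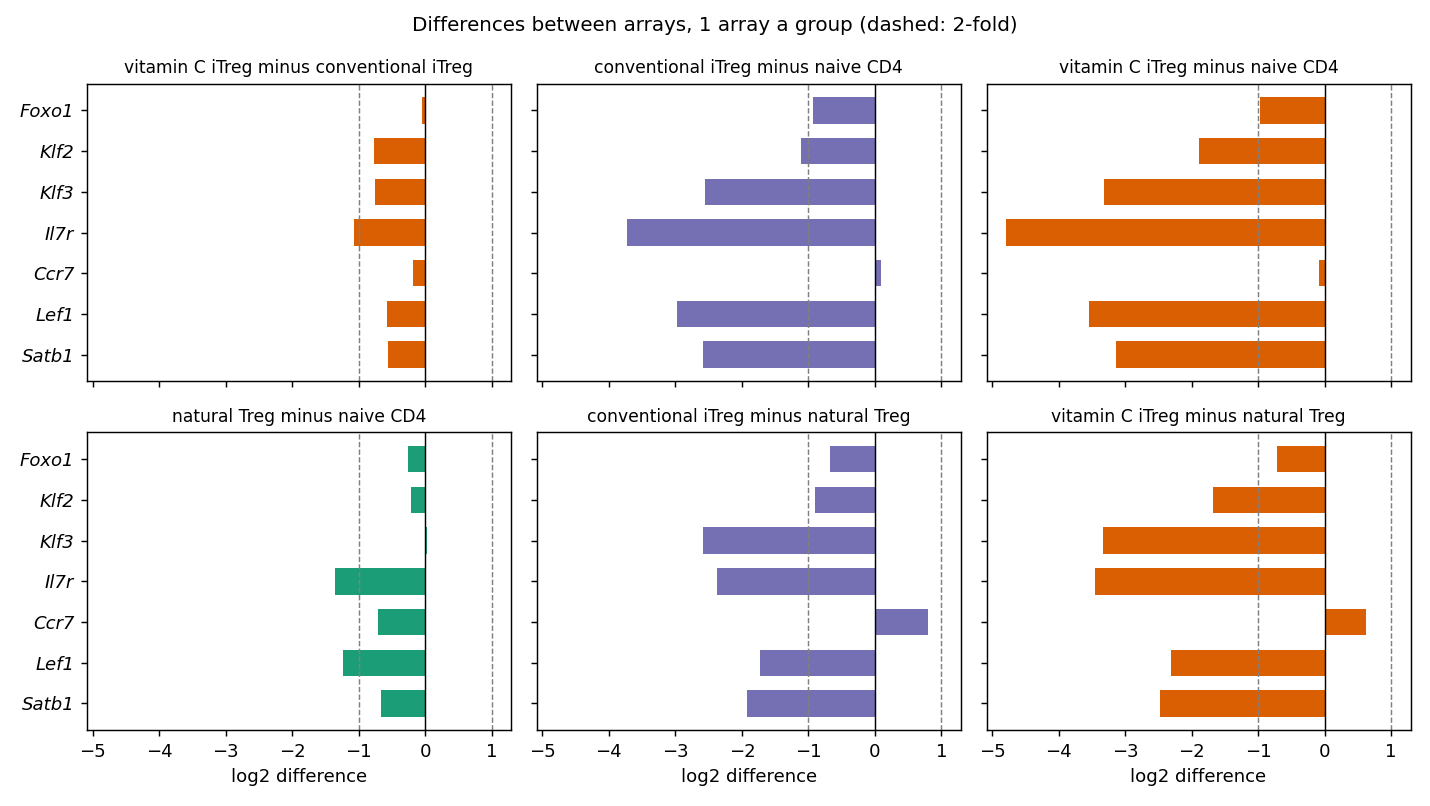
Log2 difference (x axis) of the 7 detected naive and quiescence genes (rows) in each of 6 comparisons between 2 arrays. Dashed lines mark 2-fold. Against naive CD4 and against natural Treg the bars of Il7r, Lef1, Satb1 and Klf3 on both iTreg arrays pass 2-fold, whereas Foxo1 stays inside it in all 6 panels and Ccr7 is above 0 against natural Treg.

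Natural Treg and naive CD4 were both sorted directly from tissue, so this comparison carries no culture, but natural Treg were not gated on CD44 and naive cells were. Of 4 markers of activated or memory T cells, 3 were higher in natural Treg: Tnfrsf4 (4.06), Tnfrsf9 (3.05) and Cd44 (2.16). The other, Cd69, was at -0.13. The part of activated cells in the members' differences was not tested. Of 7 compared members, 2 were at least 2-fold lower in natural Treg (Il7r, -1.35, and Lef1, -1.23) and 0 at least 2-fold higher. In the background 2.03% of 7582 genes were lower and 6.03% higher. The other members differed by less: Ccr7 -0.71, Satb1 -0.66, Foxo1 -0.25, Klf2 -0.21 and Klf3 0.02. The median of the members was -0.66, and that of all genes compared was -0.05. The sign of Klf3 turned with median centring, where it was -0.06. Markers of other cells differed too, 3 of them by more than any member. The B cell marker Cd79b was at 9.97 in natural Treg and 7.60 in naive CD4. Klrd1 was not detected in natural Treg and was at 10.88 in naive CD4, a log2 difference of -4.56 or lower. Nkg7 was at 10.46 in natural Treg and not detected in naive CD4, at least 3.81 log2 higher. Cd8b1 (-0.56), Cst3 (0.48) and Hba-a1 (-0.98) differed by less, and the part of these cells in the members' differences was not tested.

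Set against natural Treg, the only Treg array taken directly from tissue, conventional iTreg had 4 of 7 members at least 2-fold lower and 0 higher, in a background of 12% of 8031 genes lower and 11.1% higher. These were Klf3 (-2.58), Il7r (-2.38), Satb1 (-1.92) and Lef1 (-1.73). Klf2 (-0.91) and Foxo1 (-0.68) lay below 0 and Ccr7 above it (0.80). In vitamin C iTreg 5 of 7 members were at least 2-fold lower than in natural Treg, in a background of 13% of 8034 genes lower and 11.7% higher, with Klf2 (-1.68) as the added gene. Il7r (-3.45) and Klf3 (-3.34) were lowest, and Ccr7 was again above 0 (0.62). With its probes averaged Il7r was at -2.35 for vitamin C iTreg and -1.59 for conventional iTreg. Nkg7 differed from natural Treg by 0.77 in vitamin C iTreg and 2.47 in conventional iTreg. Klrd1, not detected in natural Treg, was at least 1.38 higher in vitamin C iTreg and at least 2.36 higher in conventional iTreg. Cd8b1 went the other way, by -0.51 in vitamin C iTreg and -1.07 in conventional iTreg. Cst3 differed by 0.98 in vitamin C iTreg and 0.72 in conventional iTreg. Cd79b and Hba-a1 were detected in natural Treg and in neither culture. The part of such cells was not tested. The medians of the members were -2.31 for vitamin C iTreg and -1.73 for conventional iTreg, and that of all genes was -0.06 in both. These differences cannot be told apart from culture and from the added CD25 gate.

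The cultures with and without vitamin C were set against each other to see which genes differed with its presence. All 7 compared members lay below 0 in vitamin C iTreg minus conventional iTreg, as did 3966 of all 7756 genes compared, but Foxo1 turned to 0.005 with median centring. Only Il7r reached 2-fold, at 9.05 in vitamin C iTreg and 10.12 in conventional iTreg, a difference of -1.07. In the background 0.812% of genes were at least 2-fold lower and 0.941% higher, and 93.9% of genes lay within 1.5-fold. The Il7r call rests on the scale and on the probes taken. It was -0.95 without background correction and in the authors' log2 values, and -0.75 with its 3 probes averaged. That average takes in the dim probe ILMN_2975500, which was not detected on either culture array. The second Il7r probe, ILMN_2659739, gave -0.97.

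The size of the vitamin C difference varied among the members. Klf2 differed by -0.77 and Klf3 by -0.76, with 146 and 153 genes below them in the ranking. Lef1 (-0.57) and Satb1 (-0.56) had 256 and 274 genes below them. Ccr7 (-0.18) and Foxo1 (-0.04) were closest to 0, with 1641 and 3342 genes below them, and the deposited intensity of Foxo1 was 3977 in vitamin C iTreg and 3810 in conventional iTreg. The 3 detected markers of CD8 T or NK cells did not go one way. Nkg7 was at 11.23 in vitamin C iTreg and 12.93 in conventional iTreg, and Klrd1 at 7.69 in vitamin C iTreg and 8.68 in conventional iTreg. Cd8b1 was higher, at 10.90 in vitamin C iTreg and 10.34 in conventional iTreg, and Cst3 differed by 0.26. Their part in the members' differences was not tested. The median of the members was -0.57, against -0.01 over all genes compared. The order Il7r, Klf2, Klf3, Lef1, Satb1, Ccr7, Foxo1 came from 1 pair of arrays, and gaps as small as that between Klf2 and Klf3 have no measured spread to be set against.

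**Figure D4:**
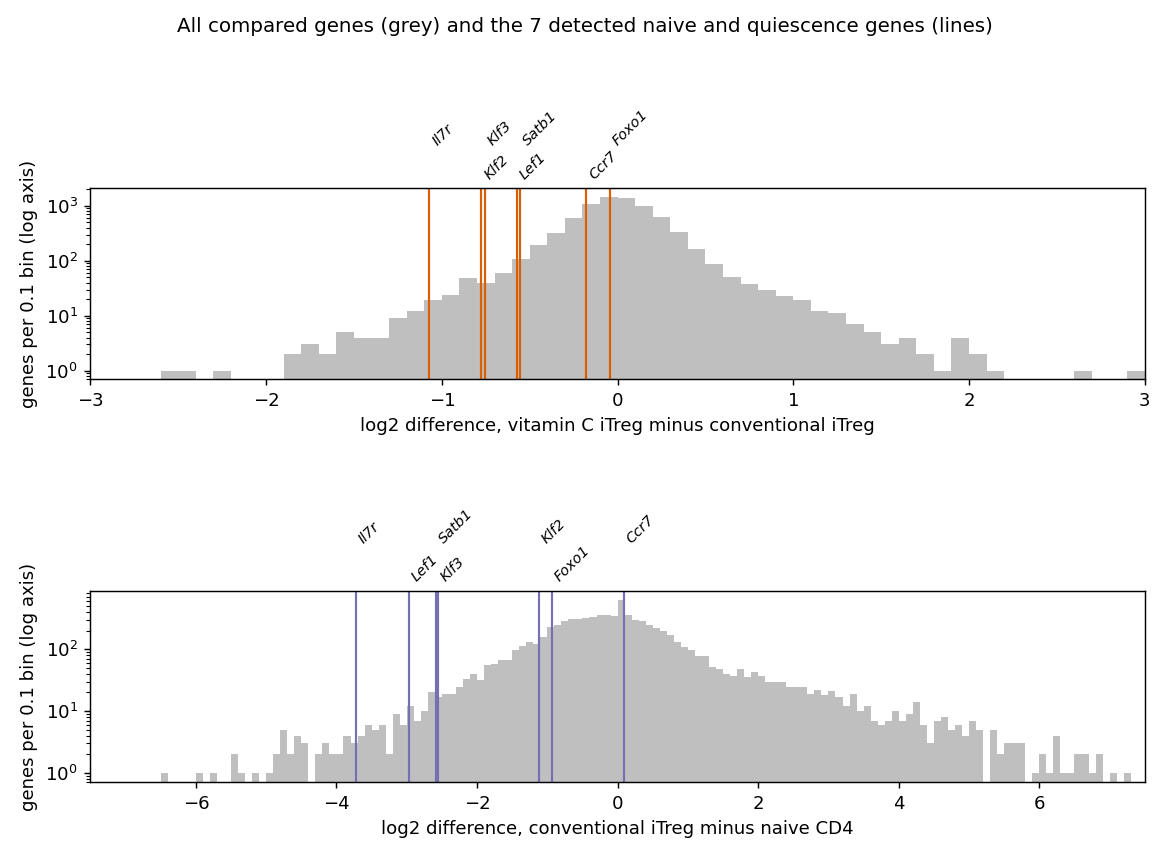
Number of genes per 0.1 log2 bin (y axis, log scale) by log2 difference (x axis) for vitamin C iTreg minus conventional iTreg (top, 7756 genes) and conventional iTreg minus naive CD4 (bottom, 7963 genes). Lines mark the 7 detected naive and quiescence genes. All 7 lie left of 0 in the top panel (Foxo1 turned to 0.005 with median centring), and 6 of them in the bottom panel, where Ccr7 is at 0.09.

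Other genes of the naive and quiescent state were described from 8 lists, with the members left out. Differences between the cultures are given as vitamin C iTreg minus conventional iTreg. The counts stand beside 14.7% of all genes compared at least 2-fold lower and 13.2% higher in conventional iTreg minus naive CD4, and 2.03% lower and 6.03% higher in natural Treg minus naive CD4. For the cultures, 3966 of all 7756 genes compared lay below 0 and 3751 above it. Only 0.812% were at least 2-fold lower and 0.941% higher, so few genes of any list would pass 2-fold there. The list of naive CD4 surface and marker genes had the lowest median of the 8 in conventional iTreg minus naive CD4, with 7 of 13 compared genes at least 2-fold lower, 1 higher, and a median of -1.73. The surface antigen gene Ly6c1 was at least 87.0-fold lower and Dapl1 at least 35.9-fold lower, and Nsg2 (-4.77) and Ms4a6b (-3.86) were lower too. The gene that was higher was Ramp1 (1.90), a receptor accessory protein gene named, like Klf6, Pecam1 and Selplg below, after its value was seen. In natural Treg minus naive CD4 the same list had 3 of 13 genes at least 2-fold lower and 0 higher, with a median of -0.41. The 3 were Dapl1 (-3.34), Igfbp4 (-2.15) and Actn1 (-1.30). Between the cultures the list had 6 of 12 genes above and 6 below 0 (median -0.03), with Ms4a6b at 0.45, Npc2 at 0.43, Nsg2 at -0.42 and Cd27 at -0.37. The markers thus split evenly in sign in that comparison.

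Of 9 compared genes of homing and adhesion, 5 were at least 2-fold lower and 0 higher in conventional iTreg than in naive CD4, with a median of -1.001. The 2 above 0 were the chemokine receptor gene Cxcr4 (0.96) and the selectin ligand gene Selplg (0.07). Arhgef18 (-3.56), the adhesion molecule gene Icam2 (-2.46), Itgb7, which encodes the beta chain of a gut-homing integrin (-1.98), and S1pr4, a sphingosine phosphate receptor gene (-1.56), differed most, and the adhesion gene Pecam1 was just past 2-fold (-1.001). S1pr4 had a log2 intensity of 7.91 in vitamin C iTreg, 8.13 in conventional iTreg, 9.39 in natural Treg and 9.70 in naive CD4, the order that Il7r had. In natural Treg minus naive CD4 this list had 0 of 9 past 2-fold and a median of -0.13. Between the cultures 6 of 9 lay below 0 (median -0.23), none past 2-fold, with Arhgef18 (-0.49), Cxcr4 (-0.46), Itgb7 (-0.45) and Cd69 (-0.32) differing most.

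Of 10 compared transcription factors of naive T cells, 3 were at least 2-fold lower and 0 higher in conventional iTreg than in naive CD4 (median -0.59). These were Ikzf1, which encodes Ikaros (-2.24), the inhibitor of DNA binding Id3 (-2.22) and Ets1 (-1.32). Between the cultures 7 of the 10 lay below 0 (median -0.15). The repressor gene Gfi1 (-1.05) was just past 2-fold lower, and Id3 (-0.59), Foxp1 (-0.36) and Klf7 (-0.26) followed. Alternative settings were followed by gene for the members only, so the Gfi1 call was not checked under them. In natural Treg minus naive CD4 Gfi1 was higher (1.53), and the median was -0.18.

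A list of Foxo targets tied to growth arrest and metabolism did not have the low median of the members. In conventional iTreg minus naive CD4, 5 of 18 were at least 2-fold higher and 0 lower, with a median of -0.01. The autophagy gene Gabarapl1 was 34.2-fold higher, Klf4 at least 7.48-fold, while the insulin receptor substrate gene Irs2 (1.45), the Myc antagonist gene Mxi1 (1.22) and the zinc finger factor gene Klf6 (1.10) were higher too. Against conventional iTreg, vitamin C iTreg had 14 of these 18 genes below 0 (median -0.14), none past 2-fold, with Sesn3 (-0.44), Cited2 (-0.35), the PI3K inhibitor gene Pik3ip1 (-0.34) and Klf4 (-0.31) differing most. In natural Treg minus naive CD4, Gabarapl1 was higher (2.69) and Pik3ip1 lower (-1.26), and the median was 0.33.

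Of 10 compared genes that act with the IL-7 receptor, 2 were at least 2-fold higher and 2 lower in conventional iTreg minus naive CD4 (median 0.34), near the 13.2% higher and 14.7% lower among all genes. The STAT5 feedback gene Cish (4.26) and Stat5a (1.49) were higher, and the kinase gene Jak1 (-2.12) and Socs3 (-1.63) were lower. Cish had a log2 intensity of 14.83 in vitamin C iTreg, 14.88 in conventional iTreg, 14.03 in natural Treg and 10.63 in naive CD4, so the 3 Treg arrays stood apart from naive CD4. Vitamin C iTreg minus conventional iTreg left 8 of the 10 below 0 (median -0.18), none past 2-fold, led by the death gene Bcl2l11 (-0.56), Stat5a (-0.46) and the survival genes Bcl2 (-0.38) and Mcl1 (-0.31).

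Regulators upstream of Foxo1 had medians near 0 in conventional iTreg minus naive CD4 (0.03) and in natural Treg minus naive CD4 (0.02). Rictor, a subunit of mTORC2 (-1.50), and the PI3K subunit gene Pik3cd (-1.17) were the 2 of 11 at least 2-fold lower in conventional iTreg, near the 14.7% of all genes, and 0 were higher. Sgk1, a kinase that phosphorylates Foxo proteins, had a log2 intensity of 14.64 in vitamin C iTreg, 14.42 in conventional iTreg, 10.78 in natural Treg and 13.43 in naive CD4. It was thus lowest in natural Treg, 6.25-fold under naive CD4. In vitamin C iTreg minus conventional iTreg 0 of 10 passed 2-fold (median -0.08), with Pdpk1 (-0.30), Pik3cd (-0.23), Sgk1 (0.22) and Ywhaz (-0.18) differing most.

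Anti-proliferative genes were mostly near 0 in conventional iTreg minus naive CD4 (median -0.16), with 2 of 10 at least 2-fold lower, the Schlafen genes Slfn1 (-2.76) and Slfn2 (-1.53), and 0 higher, again near the 14.7% of all genes lower. In vitamin C iTreg minus conventional iTreg 5 were above and 5 below 0 (median -0.02), with Slfn2 at 0.49. The proliferation list stood opposite to the members. In conventional iTreg minus naive CD4, 9 of 10 were at least 2-fold higher and 0 lower (median 2.58), with Birc5 at 4.94 and Top2a at 4.57, and Cdk1 at least 26.2-fold higher. In vitamin C iTreg minus conventional iTreg 9 of 10 lay above 0 (median 0.11), none past 2-fold, and Myc lay below (-0.49). In natural Treg minus naive CD4, 4 of 10 were at least 2-fold higher (median 0.86), namely Birc5, Rrm2, Tyms and Top2a. The part of cell division in the members' differences was not tested.

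**Figure D5:**
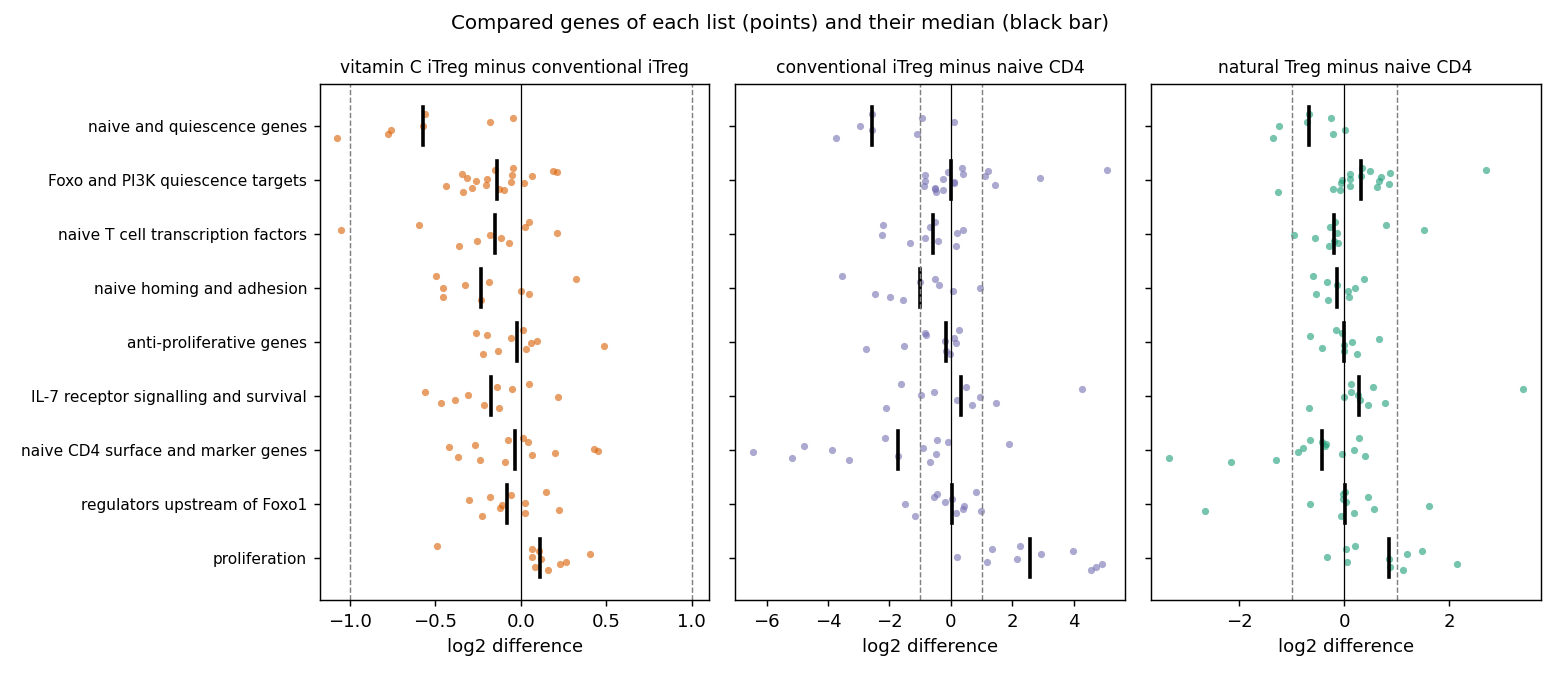
Log2 difference (x axis) of every compared gene (points) in the naive and quiescence genes and in 8 further lists (rows), for vitamin C iTreg minus conventional iTreg, conventional iTreg minus naive CD4 and natural Treg minus naive CD4. Black bars are medians, dashed lines mark 2-fold, and the x axes differ. The bar of the naive and quiescence genes is at -0.57, -2.56 and -0.66, and that of the proliferation list at 0.11, 2.58 and 0.86.

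Genes with the most similar pattern over the 4 arrays were sought among 8088 named genes, as the smallest root mean square difference of log2 values centred on each gene's mean. Il7r was most like Tmem108 (0.17), Tmem71 (0.26) and Spo11 (0.27). Klf2 was most like Sez6l2 (0.04), Slc25a42 (0.08) and Ankrd23 (0.08), and Klf3 like Cdk5r1 (0.08), the nucleoside transporter gene Slc28a2 (0.08) and Prr7 (0.12). Lef1 was most like the potassium chloride cotransporter gene Slc12a7 (0.07), Nckap5l (0.11) and Actn1 of the naive marker list (0.14). Satb1 was most like Zfp365 (0.05), Sfmbt2 (0.10) and Padi1 (0.12). Foxo1 was most like Zfp512 (0.01), Ptpn12 (0.01) and Erf (0.02), and Ccr7 like Lrtm1 (0.04), Shq1 (0.04) and C1qbp (0.05). The median pattern of the members was most like Gab3 (0.10), Vamp1 (0.11) and Rcbtb2 (0.11). With 4 arrays many genes share any such order, so these are descriptions of shape.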

How the data were processed

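RNA of 4 samples was hybridised to Illumina bead arrays, 1 per group. The submitters' processing notes list GenomeStudio 2011.1. Per the file headers, each of 25697 probes has an intensity on a linear scale with its detection p-value, as the authors deposited them. The headers do not state whether background was subtracted. A second deposited table holds log2 values of unstated method. Quantile normalization of the log2 intensities matched them within 5e-07.

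The neqc function of limma 3.58.1 (R 4.3.3) corrected the background, with the control level taken from the detection p-values, added an offset of 16, applied quantile normalization and took log2. Differences of dim genes are drawn toward 0 by the offset, and quantile normalization would hide a shift of most genes. Of the probes, 23978 had 1 gene symbol, 0 had several and 1719 had none. Symbols were updated through a RefSeq table of GRCm38.p6, which matched 23971 probes and altered 8. A gene was its probe with the highest mean. It was compared when detected (p under 0.01) on at least 1 of the 2 arrays. A value not detected was set to the higher of itself and the array's lowest detected signal, which gives a bound ("at least"). Differences were counted from 2-fold, and 8 alternatives were run. Python 3.11.15, numpy 2.4.6, pandas 2.3.3 and matplotlib 3.10.9 were used.

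The rule for named genes took all members, the 4 compared genes of each list that differed most in a comparison, and the 3 genes most like each member. Not all list genes it took are printed, and Ramp1, Klf6, Pecam1 and Selplg were named outside it. Members and lists were chosen with earlier results of these data known. The steps were tested on simulated arrays. With 1 array a group, the number of arrays limits the precision, and the depth of each value is not known.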

Additional observations from a re-analysis of the deposited data

How the results depend on the processing

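Of the 144 values of the members' medians and of their 2-fold counts under 8 alternatives, 139 kept within 1.5-fold of the value given. Much of this was fixed in advance. The 7 compared members were detected on all 4 arrays, so the detection rule could not alter their own values. The authors' values repeat the setting without background correction. Every count of members at least 2-fold higher was 0. The count of members at least 2-fold lower in vitamin C iTreg than in conventional iTreg became 0, in place of 1, without background correction, with the authors' log2 values and with probes averaged. Il7r then stood inside 2-fold, at -0.75 with probes averaged. Without the detection filter, which adds S1pr1, the median against naive CD4 was -2.51 for vitamin C iTreg and -1.84 for conventional iTreg. Averaging the probes of Il7r, which brings in its dim probe, gave -3.95 for vitamin C iTreg minus naive CD4 and -3.20 for conventional iTreg minus naive CD4. Against natural Treg it gave -2.35 for vitamin C iTreg and -1.59 for conventional iTreg. The other counts of members past 2-fold were the same under all 8 alternatives, not all of which could change them.

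The background counts moved more. For vitamin C iTreg minus conventional iTreg 73 genes were higher and 63 lower, against 34 and 20 without background correction and in the authors' values, and 99 were lower without the detection filter. For natural Treg minus naive CD4, 154 genes were lower, and 85 without background correction and in the authors' values. With detection on both arrays the higher counts were 642 in place of 1051 for conventional iTreg minus naive CD4, 677 in place of 1098 for vitamin C iTreg minus naive CD4, and 291 in place of 457 for natural Treg minus naive CD4. Median centring moved the median of all genes against natural Treg to 0.08 for vitamin C iTreg and 0.07 for conventional iTreg, in place of -0.06 for both. The share of 2-fold differences that were higher then became 58.1% for vitamin C iTreg, in place of 47.4%, and 58.4% for conventional iTreg, in place of 48.1%. With it Foxo1 turned to 0.005 in vitamin C iTreg minus conventional iTreg and Klf3 to -0.06 in natural Treg minus naive CD4, and no other difference of a member turned its sign under the 8 alternatives. No paired analysis was possible because each group has 1 array. Signals near background, as for S1pr1, set the limit of what could be compared.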
